A study of Mus musculus with 12 samples.

Results

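Cytochrome c oxidase, complex IV of the respiratory chain, is built in part from nuclear subunits that mammals encode in pairs of genes, a widely expressed isoform and a tissue-restricted one. Of the 23420 genes counted in inguinal white adipose tissue (iWAT), the 9 described here were chosen by symbol. They are the pairs Cox4i1 and Cox4i2, Cox6a1 and Cox6a2, Cox7a2 and Cox7a1, and Cox8a and Cox8b, together with Cox7a2l. All 9 passed the filter on low counts. The data were RNA-seq read counts from 12 libraries of 10-week-old male C57BL/6 mice, with 3 libraries in each of 4 groups. All mice were HIF2a loxP/loxP. Those called WT had no Cre, and those called HIF2α AKO also had Adipoq-Cre, which acts in adipocytes and not in the other cells of the fat pad. Each genotype was kept at thermoneutrality (TN, 30 °C for 1 week) or in cold (4 to 6 °C for 3 days). No group carried Cre without loxP alleles, so Cre and the deletion cannot be told apart. The labels do not say whether each library came from a separate mouse, and p-values therefore measure the spread between libraries.

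Cytochrome c oxidase passes electrons from cytochrome c to oxygen and pumps protons across the inner mitochondrial membrane. Its catalytic core is encoded by mitochondrial DNA, and the nuclear subunits surround that core and adjust its stability and activity. COX6A2, COX7A1 and COX8B are the forms known from heart and skeletal muscle, and COX7A1 and COX8B are also known from brown fat. COX6A1, COX7A2 and COX8A are the forms found in liver and most other tissues. COX4I2 is the form of subunit 4 known from lung and from the mural cells of vessels, and it is known for its response to low oxygen. COX7A2L resembles COX7A2 but is known as an assembly factor for supercomplexes of complexes III and IV. Whether it has this role in these mice was not measured.

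The promoters of Cox7a1 and Cox8b are shown because these were the isoform genes with the largest differences between temperatures. Both genes lie on chromosome 7 of GRCm38.p6, Cox7a1 on the plus strand at chr7:30184144-30186078 and Cox8b on the minus strand at chr7:140898945-140900446. The sequences run 5′ to 3′ along each gene from 250 bases before to 50 bases after the start site in RefSeq, and they cover chr7:30183921-30184220 and chr7:140900397-140900696. Capitals mark matches on either strand to ACGTG or GCGTG, cores of the hypoxia response element, and to CAGCTG, an E-box.
Cox7a1: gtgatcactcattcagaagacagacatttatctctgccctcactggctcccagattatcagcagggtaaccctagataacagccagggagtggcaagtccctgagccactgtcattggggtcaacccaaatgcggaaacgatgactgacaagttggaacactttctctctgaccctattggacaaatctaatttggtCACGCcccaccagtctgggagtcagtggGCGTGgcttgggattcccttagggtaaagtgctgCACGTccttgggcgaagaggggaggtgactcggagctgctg
Cox8b: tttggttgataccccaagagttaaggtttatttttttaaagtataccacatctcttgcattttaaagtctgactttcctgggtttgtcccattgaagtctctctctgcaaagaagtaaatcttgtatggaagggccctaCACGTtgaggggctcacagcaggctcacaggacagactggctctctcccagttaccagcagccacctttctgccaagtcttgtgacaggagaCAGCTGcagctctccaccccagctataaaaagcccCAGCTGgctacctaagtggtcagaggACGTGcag

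The Cox7a1 promoter held 1 match to ACGTG, between 10 and 14 bases after the start, and 2 matches to GCGTG upstream of it. The Cox8b promoter held 2 matches to ACGTG and 2 to CAGCTG. Matches in these windows did not overlap each other. The promoters of Cox7a2 and Cox8a, the widely expressed partners, each held 1 match to GCGTG and 0 to ACGTG and CAGCTG. That of Cox8b held 0 matches to GCGTG. Of 32851 RefSeq promoters of 300 bases, 19.6% held ACGTG, 32.4% held GCGTG and 16.3% held CAGCTG, so each of these words is common. AAGGTCA, a core bound by estrogen-related receptors, was present in 4.72% of all promoters and TGCGCA, the core of the NRF1 site, in 7.76%. AAGGTCA was found in none of the 6 promoters matched among these genes (Cox6a1, Cox7a1, Cox7a2, Cox7a2l, Cox8a and Cox8b), and TGCGCA was found in that of Cox6a1 alone.

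Reads counted on genes summed to between 22368316 and 35204631 per library. Epas1, which encodes HIF2α, was examined as the check of the genotype labels. Its level in CPM (counts scaled to the library size, after TMM normalization) was 373, 278 and 430 in TN WT and 289, 394 and 360 in TN HIF2α AKO. In cold, it was 576, 562 and 743 in WT and 986, 743 and 749 in HIF2α AKO. Epas1 was not called lower in the libraries labelled HIF2α AKO at either temperature, with log2 fold changes of -0.05 (SE 0.20) at TN and 0.40 (SE 0.20) in cold and an adjusted p of 1.00 in edgeR's quasi-likelihood test for each. The genotype labels were thus not borne out by the Epas1 level, and genotypes are given as labelled. The counts cover the whole gene and all cells of the fat pad, and the part of either in these values was not tested. The study itself reported lower Hif2a mRNA in iWAT of its HIF2α AKO mice by RT-qPCR, a different measure from these counts. Adipocyte markers were abundant in every library, and Fabp4, a fatty acid binding protein, had the highest mean CPM, not corrected for length, of 7 listed in each group.

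To ask how the isoform genes responded to cold, cold and TN libraries were compared within each genotype. The genes of the widely expressed isoforms and 2 of the 4 tissue-restricted ones, Cox7a1 and Cox8b, rose in cold in both genotypes, and Cox7a1 and Cox8b rose by far more than their partners. Cox4i2 and Cox6a2 passed the test in neither genotype. In WT, 6 of the 9 genes rose and none fell, where 15.6% of the 15306 genes tested rose at an adjusted p under 0.05. In HIF2α AKO, 7 of 9 rose and none fell, again beside 15.6% of all genes. Fewer or more cells of a type and less or more RNA per cell cannot be told apart in such bulk samples. Of 7 adipocyte markers, 3 rose in cold in WT and 2 in HIF2α AKO, and of 7 endothelial markers, 0 and 1 rose, while 0 of the 4 macrophage markers tested, of 5 listed, passed in either genotype. The summed level of the adipocyte markers was 4928 to 13319.7 CPM in the TN libraries and 17253 to 33951 CPM in the cold ones, and its part in the results was not tested. Of 5 epithelial markers, all were fitted lower in cold in WT (median log2 fold change -4.36), and 1 passed the test, Epcam, named after its values were seen (-2.69, adjusted p = 0.0339), while 0 passed in HIF2α AKO. Their sum was 184.6 CPM in TN WT replicate 3 and 2.95 to 10.3 CPM in the other 11 libraries. Without that library, 6 of the 9 genes still rose in WT, where 3722 of the 15467 genes then tested were called in either direction. The median log2 fold change of the 9 genes was 1.32 in WT and 1.499 in HIF2α AKO, and that of all genes tested was -0.03 and -0.05.

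Cox7a1, the thermogenic and muscle form of subunit 7A, was low at TN. Its level was 0.688, 0.480 and 1.74 CPM in TN WT and 0.351, 2.04 and 1.91 CPM in TN HIF2α AKO, from 9 to 65 reads per library. In cold, it was 36.2, 55.3 and 46.1 CPM in WT and 130, 60.4 and 62.5 CPM in HIF2α AKO. Each cold library lay far above all TN libraries, and the highest value came from cold HIF2α AKO replicate 1. Cox7a1 rose 47.8-fold in WT (log2 fold change 5.58, SE 0.58, adjusted p = 4.48e-04) and 57.5-fold in HIF2α AKO (5.84, SE 0.57, adjusted p = 1.82e-04). Without TN WT replicate 3, the highest of its group for Cox7a1, the log2 fold change in WT was 6.26 (adjusted p = 0.00103). That was the upper end of a range from 5.27 to 6.26 over 13 other settings of the fit. The lower end came without TN WT replicate 2, and the call was lost in 0 of the 13. Only 17 of the 15306 genes had a larger log2 fold change in WT and 23 in HIF2α AKO.

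Cox8b, the partner of Cox8a in the smallest nuclear subunit, was measured at 12.9, 3.22 and 13.1 CPM in TN WT and at 8.26, 17.1 and 13.0 CPM in TN HIF2α AKO. The cold values were 135, 177 and 220 CPM in WT and 285, 191 and 216 CPM in HIF2α AKO. The TN and cold libraries did not overlap, and TN WT replicate 2 was the lowest. Cox8b rose 18.1-fold in WT (log2 fold change 4.18, SE 0.48, adjusted p = 5.97e-04) and 18.0-fold in HIF2α AKO (4.17, SE 0.48, adjusted p = 3.28e-04). A larger log2 fold change was fitted for 33 genes in WT and for 42 in HIF2α AKO.

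**Figure D1:**
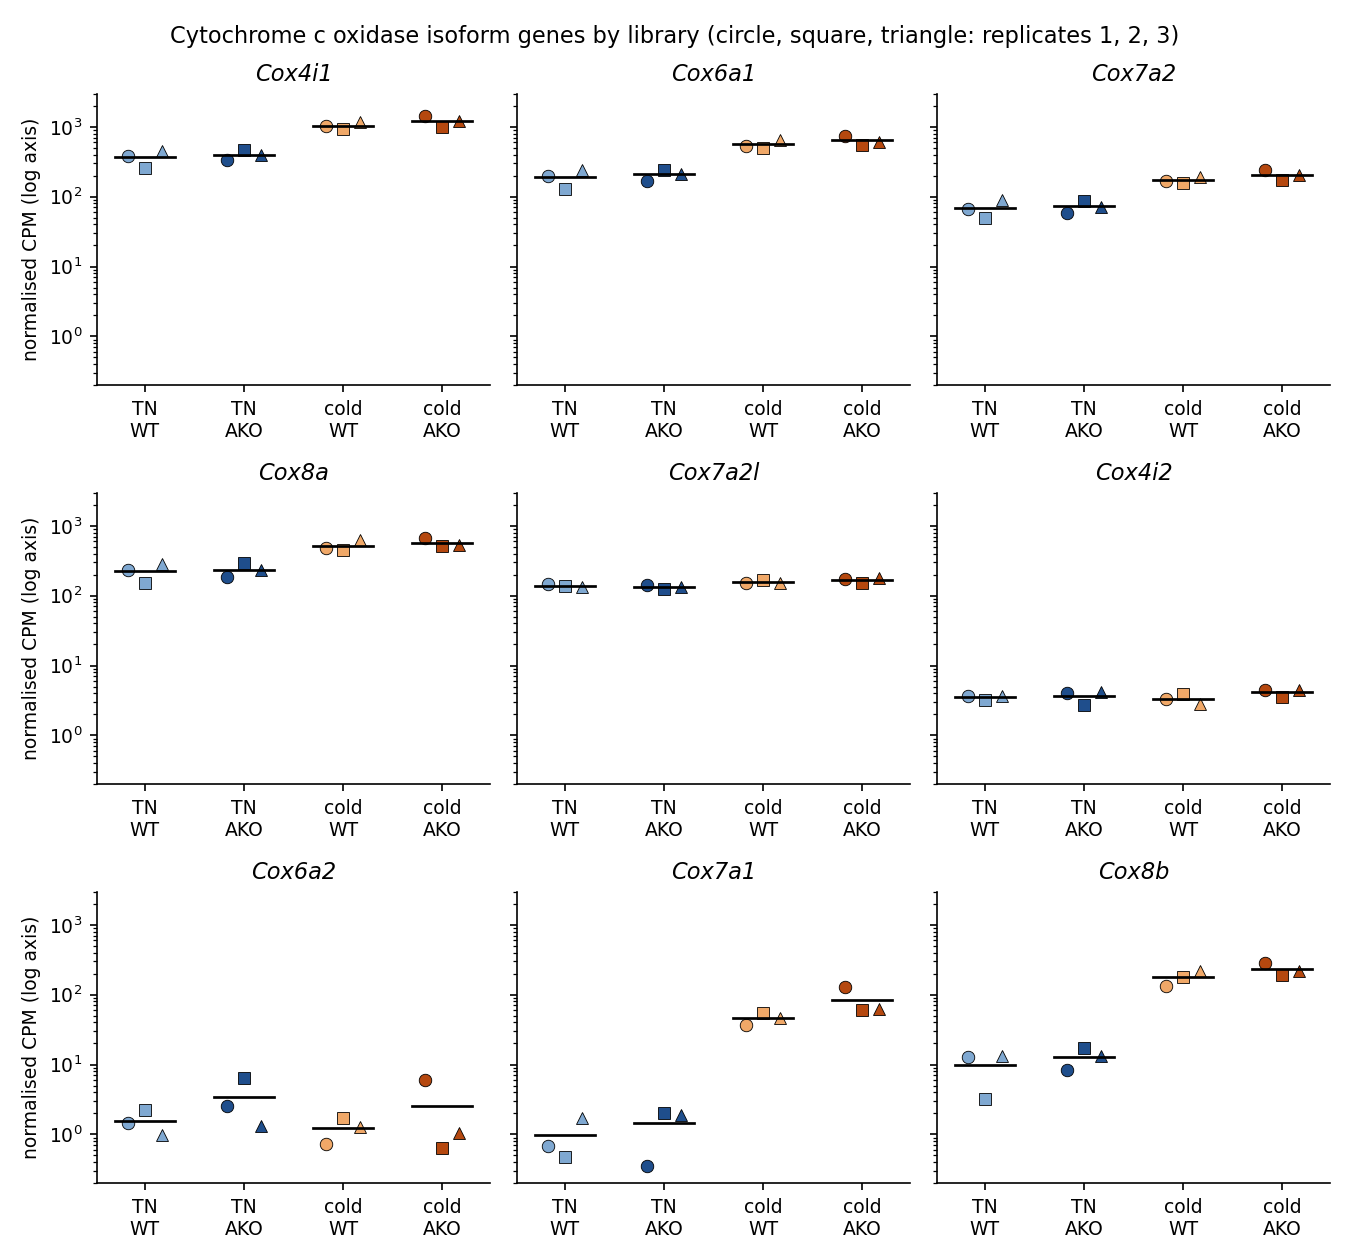
Level of each of the 9 genes in the 12 libraries, in normalised CPM on a log axis, with the groups along the x axis, a marker for each replicate and a line at the group mean. Cox7a1 moves from between 0.351 and 2.04 CPM at TN to between 36.2 and 130 CPM in cold, whereas Cox4i2 stays between 2.70 and 4.49 CPM in all libraries.

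The 4 widely expressed isoforms rose by a narrower range, between 2.34-fold and 2.96-fold in WT and between 2.38-fold and 3.06-fold in HIF2α AKO. Cox4i1, which encodes the common form of subunit 4, was the most highly counted of the 9 genes. Its level was 384, 261 and 447 CPM in TN WT against 1030, 940 and 1157 CPM in cold WT. In HIF2α AKO, it was 337, 464 and 392 CPM at TN against 1426, 986 and 1208 CPM in cold. Each cold library exceeded each TN library, and Cox4i1 rose by a log2 fold change of 1.52 (SE 0.22) in WT and 1.60 (SE 0.22) in HIF2α AKO, with adjusted p of 0.00145 and 7.13e-04.

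Cox6a1, the common form of subunit 6A, had log2 fold changes of 1.57 (SE 0.23, adjusted p = 0.00169) in WT and 1.61 (SE 0.23, adjusted p = 9.60e-04) in HIF2α AKO. Its mean level went from 190 ± 57.1 to 562 ± 83.8 CPM (SD, n = 3) in WT and from 208 ± 35.2 to 638 ± 101 CPM in HIF2α AKO. Cox7a2, the common form of subunit 7A, rose from 69.0 ± 20.4 to 173 ± 18.6 CPM and from 72.6 ± 14.4 to 205 ± 34.2 CPM in the same order (adjusted p = 0.00274 and 0.00108). For Cox8a, the corresponding levels were 222 ± 67.5 and 519 ± 91.7 CPM in WT and 237 ± 51.5 and 564 ± 83.2 CPM in HIF2α AKO (adjusted p = 0.00631 and 0.00483). For these genes too, the TN and cold libraries of a genotype did not overlap.

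Cox7a2l, whose protein resembles COX7A2, moved little. It was at 148, 137 and 132 CPM in TN WT and 153, 166 and 150 CPM in cold WT, and the log2 fold change of 0.17 (SE 0.09) did not pass the test (adjusted p = 0.199). In HIF2α AKO, it was at 142, 125 and 134 CPM at TN and 173, 152 and 177 CPM in cold and rose by 0.32 on the log2 scale (SE 0.09, adjusted p = 0.0283). The call in HIF2α AKO was lost when TN replicate 2 (adjusted p = 0.0757), TN replicate 3 (0.0737), cold replicate 1 (0.1002) or cold replicate 3 (0.0753) was left out. It was also lost when only the 2 groups compared entered the fit (adjusted p = 0.0548).

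Cox4i2 was low at both temperatures. Its level was 3.62, 3.22 and 3.62 CPM in TN WT and 3.27, 3.84 and 2.82 CPM in cold WT, from 70 to 142 reads per library. In HIF2α AKO, it was 4.01, 2.70 and 4.24 CPM at TN and 4.41, 3.54 and 4.49 CPM in cold. The groups overlapped, and the log2 fold changes were -0.08 (SE 0.21, adjusted p = 0.801) in WT and 0.18 (SE 0.20, adjusted p = 0.512) in HIF2α AKO. Among markers of mural cells, the vessel cells known to express this isoform, 2 of 11 rose in each genotype. In each genotype, 15.6% of all genes tested rose. The median log2 fold change of the 11 markers was 0.14 in WT and 0.28 in HIF2α AKO, and 10 of them were fitted higher in WT and 11 in HIF2α AKO.

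Cox6a2, the striated muscle form of subunit 6A, was low in all groups, with 16 to 202 reads per library. It was at 1.45, 2.26 and 0.989 CPM in TN WT and 0.716, 1.71 and 1.29 CPM in cold WT. In HIF2α AKO, it was at 2.57, 6.34 and 1.31 CPM at TN and 6.00, 0.643 and 1.04 CPM in cold. A single library in each HIF2α AKO group stood above the rest, and the log2 fold changes of -0.34 (SE 0.81) in WT and -0.43 (SE 0.77) in HIF2α AKO did not pass the test (adjusted p = 0.776 and 0.689).

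**Figure D2:**
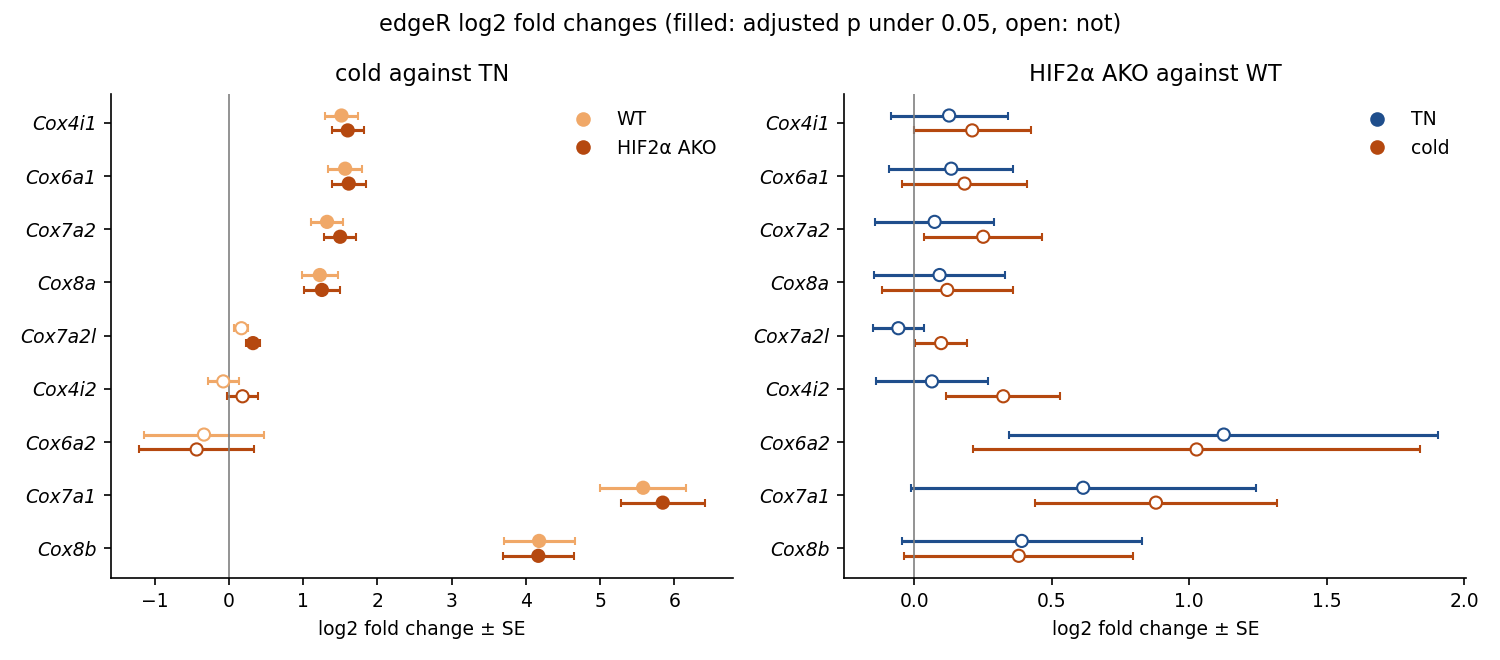
Log2 fold changes of the 9 genes from the edgeR fit, with bars for the standard error, for cold against TN in each genotype (left) and for HIF2α AKO against WT at each temperature (right), filled where the adjusted p was under 0.05. Cox7a1 and Cox8b stand at 4.17 or above in the left plot, and no marker is filled in the right plot.

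Because a ratio of 2 genes within a library does not depend on library size, the balance within each pair was examined next. Shares are given per kilobase of the merged exons of each gene, so that isoforms of different length can be compared. Cox7a1 made up 1.77, 1.68 and 3.29% of the Cox7a1 and Cox7a2 sum in TN WT and 1.04, 3.96 and 4.47% in TN HIF2α AKO. In cold, the share was 27.6, 38.3 and 29.6% in WT and 48.8, 38.0 and 35.4% in HIF2α AKO. Cox7a2 remained the larger member of the pair in every library, although Cox7a1 came near to equal in cold HIF2α AKO replicate 1. The log2 ratio of Cox7a1 to Cox7a2 was higher in cold by 4.49 over both genotypes (two-sided exact permutation test within genotypes, p = 0.005, the smallest that 400 arrangements allow, and 0.0133 after adjustment over 8 ratio comparisons). It was higher in 6 of 6 cold libraries than in any TN library.

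Cox8b made up 8.80, 3.54 and 7.32% of the Cox8b and Cox8a sum in TN WT and 7.07, 9.21 and 8.75% in TN HIF2α AKO. In cold, its share was 32.3, 40.4 and 37.7% in WT and 42.6, 39.1 and 41.6% in HIF2α AKO. The log2 ratio of Cox8b to Cox8a was higher in cold by 3.05 (exact permutation test, p = 0.005, adjusted p = 0.0133), without overlap between the temperatures. In both pairs, the mean sum of the isoforms was higher in cold as well. The Cox7a1 and Cox7a2 sum went from 74.9 ± 22.9 to 268 ± 22.7 CPM per kilobase in WT (SD, n = 3) and from 79.6 ± 16.9 to 375 ± 109 in HIF2α AKO, and the Cox8b and Cox8a sum went from 386 ± 124 to 1331 ± 248 and from 418 ± 95.3 to 1552 ± 268.

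**Figure D3:**
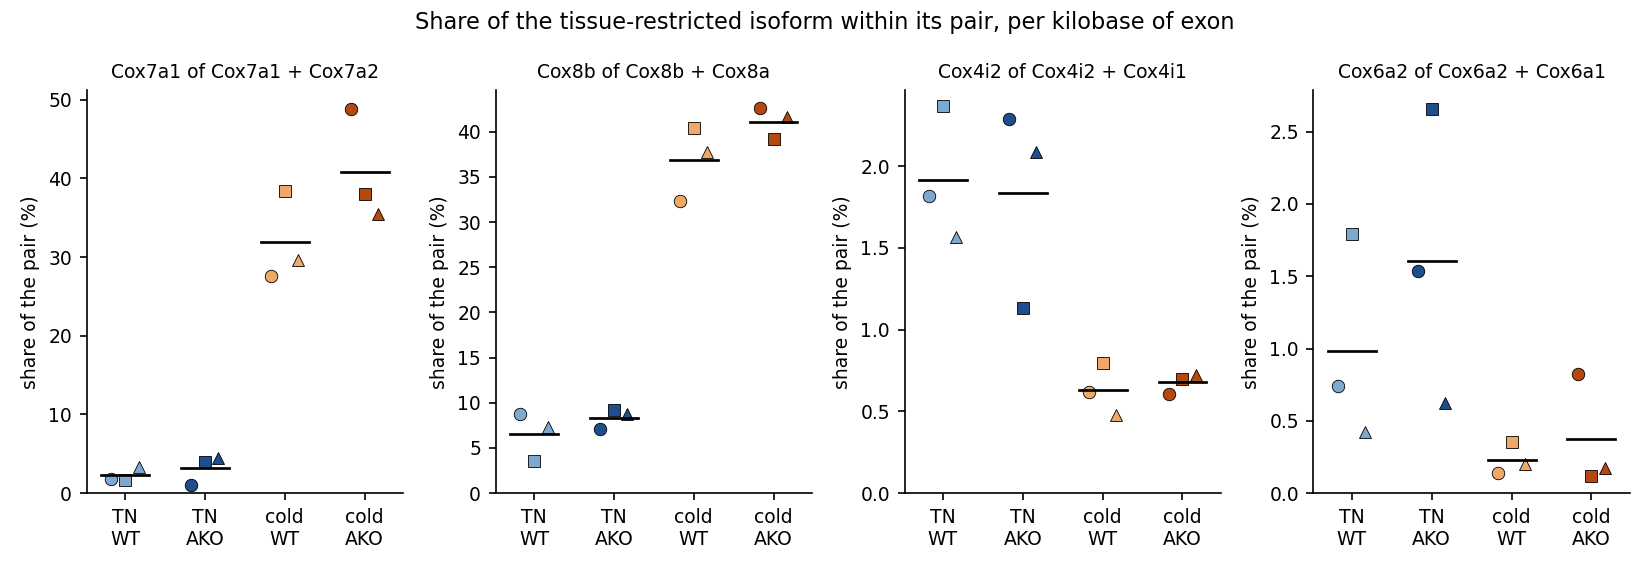
Share of the tissue-restricted isoform in the sum of its pair, in percent per kilobase of exon, by library and group, with a line at the group mean and a separate y axis for each pair. Cox7a1 and Cox8b reach between 27.6 and 48.8% in cold, and Cox4i2 and Cox6a2 stay under 3% everywhere and are lower in cold on average.

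The other 2 pairs moved the opposite way. Cox4i2 made up 1.92 ± 0.41% of the Cox4i2 and Cox4i1 sum in TN WT (SD, n = 3) and 0.631 ± 0.161% in cold WT, and 1.83 ± 0.62% and 0.677 ± 0.064% in HIF2α AKO. The log2 ratio of Cox4i2 to Cox4i1 was lower in cold by a difference of -1.51 (exact permutation test, p = 0.005, adjusted p = 0.0133), without overlap, while the Cox4i2 level itself did not pass the test and Cox4i1 rose. Cox6a2 made up 0.986 ± 0.715% of its pair in TN WT and 0.232 ± 0.111% in cold WT, and 1.61 ± 1.02% and 0.372 ± 0.390% in HIF2α AKO. The difference in the log2 ratio of Cox6a2 to Cox6a1 was -2.17 (exact permutation test, p = 0.015, adjusted p = 0.03). This call was lost without TN HIF2α AKO replicate 2 (adjusted p = 0.07 in the exact permutation test). It was also lost, at an adjusted p of 0.05 and so not under the limit, without TN WT replicate 2, cold WT replicate 1 or 3, or cold HIF2α AKO replicate 2 or 3. In HIF2α AKO, the temperatures overlapped, since cold replicate 1 had a share of 0.821% and TN replicate 3 a share of 0.625%. Within a single genotype, 3 libraries against 3 cannot give an exact p below 0.1, and each of the 4 ratios reached it in WT.

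With Cox7a2l included as a further member of the family, the Cox7a1 share was lower but followed the same course. Cox7a2l made up 56.3 ± 8.2% of the sum of Cox7a1, Cox7a2 and Cox7a2l in TN WT and 28.3 ± 2.1% in cold WT. In HIF2α AKO, its share was 53.5 ± 6.9% at TN and 23.8 ± 4.2% in cold. The Cox7a1 share of that sum was 1.03% and 22.8% in WT on average. Each cold library had a lower Cox7a2l share (19.0 to 29.6%) than each TN library (46.7 to 63.5%), although the Cox7a2l level itself was not lower.

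The shares depended on how length was counted. Without correction for length, Cox7a1 made up 21.03% of the reads of its pair in cold WT and 28.2% in cold HIF2α AKO, and Cox8b 25.4 and 28.9%. In TN WT, the mean share went from 2.25% per kilobase to 1.29% of reads for Cox7a1, from 6.55 to 3.93% for Cox8b and from 1.92 to 0.984% for Cox4i2. Per kilobase of the main transcript alone, the Cox4i2 share in TN WT was 1.03%. The ratio tests do not depend on length, since a constant factor drops out of each difference. The 95% exact binomial interval of a share of reads in a library was at most 2.46 percentage points wide, which covers counting error only. The isoforms of a pair were 57.4 to 66.3% identical in their coding sequences and shared no stretch of 50 bases, so reads of that length or more can be told apart within a pair. With other genes, Cox4i1 shared 14.7% of its 50-base words (Emc8, which it overlaps), Cox7a2l 19.8% (Gm6969), Cox6a1 12.3% (AC148174.2) and Cox6a2 3.33% (Itgad, which it overlaps). The levels of these 4 genes are uncertain where reads from such stretches were left out or counted on the other gene. Cox7a1, Cox7a2, Cox8a, Cox8b and Cox4i2 shared none.

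Libraries were then compared between genotypes to ask whether the isoforms differed with the labelled genotype. In cold, 0 of the 9 genes passed edgeR's test, where 0.00653% of all genes did, that is 1 gene, and 451 genes had an unadjusted p under 0.05. At TN, 0 of 9 passed, beside 0.00653% of all genes and 446 genes at an unadjusted p under 0.05. DESeq2 and limma voom also called 0 of the 9 genes at each temperature, beside 7 and 2 of all 15306 genes in cold and 9 and 2 at TN. In cold, all 9 fitted log2 fold changes were above 0, with a median of 0.25 beside -0.02 for all genes tested. Without cold HIF2α AKO replicate 1, those of Cox6a2 and Cox8a were -0.55 and -0.0076. Cox7a1 had the lowest p of the 9, with a log2 fold change of 0.88 (SE 0.44, adjusted p = 1.00). Without the 2 libraries with muscle transcripts described below, its log2 fold change was 0.42. The cold HIF2α AKO libraries were higher in the summed level of the thermogenic adipocyte list, at 5447 to 8317 CPM against 3228 to 4680 CPM in cold WT. Much of this sum was Ucp1, the uncoupling protein, at 4696 CPM on average against 2638 CPM. Of the 8 genes of the list, 0 passed the test between genotypes in cold.

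The balance within pairs did not pass the test between genotypes either. Over both temperatures, the log2 ratio differed between HIF2α AKO and WT by 0.44 for Cox7a1 to Cox7a2 (exact permutation test, p = 0.275), by 0.36 for Cox8b to Cox8a (p = 0.095), by 0.50 for Cox6a2 to Cox6a1 (p = 0.41) and by 0.01 for Cox4i2 to Cox4i1 (p = 0.965). After adjustment, these were between 0.152 and 0.965. The Cox7a1 ratio passed when TN HIF2α AKO replicate 1 was left out (0.77, adjusted p = 0.048, exact permutation test), and the Cox8b ratio passed without TN WT replicate 1 (0.50, adjusted p = 0.04). The interaction of genotype and temperature was called for 0 of the 9 genes and for 0% of all genes, with 327 genes at an unadjusted p under 0.05. DESeq2 and voom called 0 of the 9 and 0 of all genes as well. A difference in the cold response between the genotypes was thus not detectable for these genes at 3 libraries per group.

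As Cox6a2, Cox7a1 and Cox8b are known from skeletal muscle, markers of that tissue were summed in each library. The 20 muscle genes summed to 2173 CPM in TN HIF2α AKO replicate 2 and to 1907 CPM in cold HIF2α AKO replicate 1. In the other 10 libraries, the sum lay between 51.1 and 150 CPM, with ranges of 94.8 to 150 CPM in TN WT, 61.4 to 83.8 CPM in cold WT, 51.1 to 85.1 CPM in the other TN HIF2α AKO libraries and 76.2 to 77.0 CPM in the other cold HIF2α AKO libraries. None of the 20 genes was at 0 counts in the 2 high libraries or in 5 of the other 10. Myh4, a fast myosin heavy chain, was at 0 in cold WT replicate 1 and Ckm, muscle creatine kinase, and Pvalb were at 0 in cold WT replicate 2. Myl2, a slow muscle and heart light chain, was at 0 in 3 of the other 10 libraries, and Myh7, the slow myosin heavy chain, in 1. Between the cold groups, 17 of the 19 muscle genes tested were fitted higher in HIF2α AKO and 2 lower. The 2 were Myh7 and Tnnt1, at 0.123 and 0.745 CPM on average against 0.309 and 0.771 CPM in cold WT. Myl1 alone was at 47.7 CPM on average in cold WT, much of the sum there. Markers of cardiac muscle summed to at most 6.92 CPM in any library.

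Cox6a2 was highest in exactly these 2 libraries, at 6.34 and 6.00 CPM against 0.643 to 2.57 CPM in the other 10. Without them, its log2 fold change between genotypes went from 1.03 to -0.55 in cold and from 1.13 to 0.30 at TN. Its log2 ratio to Cox6a1 remained lower in cold, by a difference of -2.34 (exact permutation test, p = 0.0167, adjusted p = 0.0333). Cox7a1 at TN was 2.04 CPM in the muscle-rich library and 1.91 and 1.74 CPM in TN HIF2α AKO replicate 3 and TN WT replicate 3, which had few muscle transcripts. In cold, Cox7a1 was 130 CPM in the muscle-rich library against 60.4 and 62.5 CPM in the other 2 of its group. That library was also the highest of the 12 for Cox4i1, Cox6a1, Cox7a2, Cox8a and Cox8b, and for the summed thermogenic adipocyte genes.

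**Figure D4:**
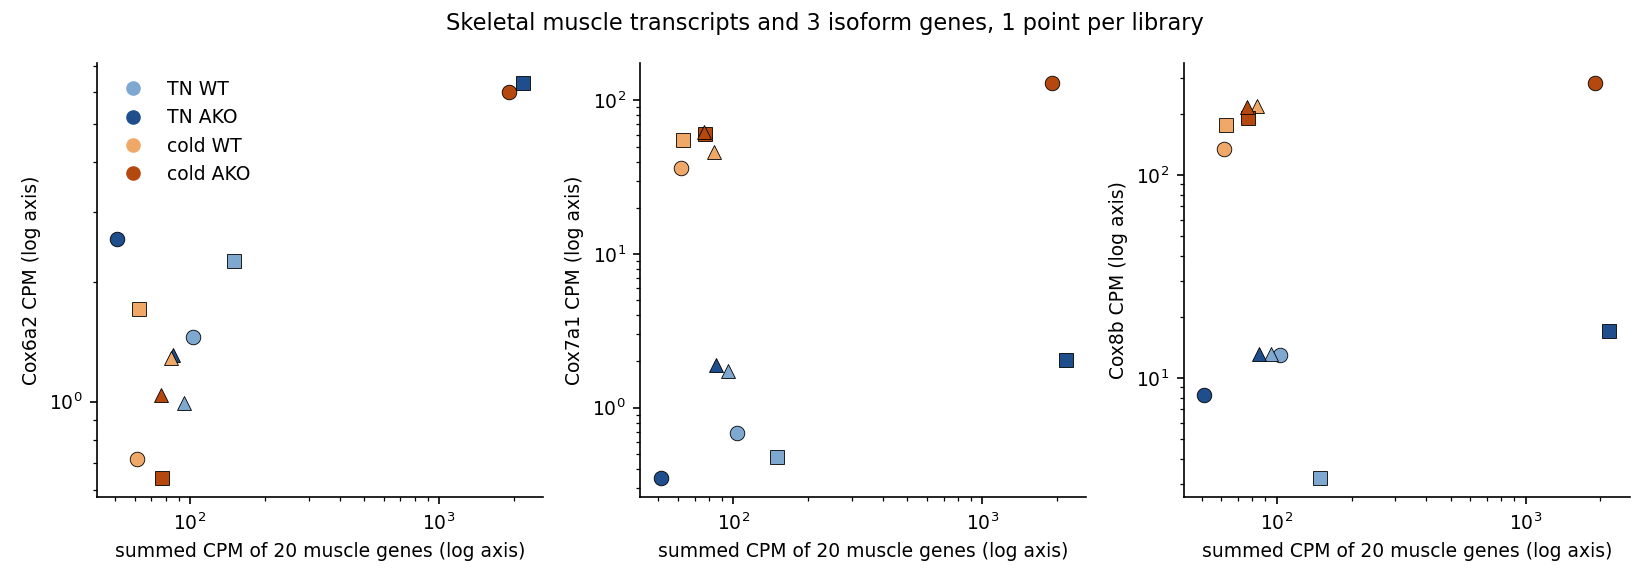
Levels of Cox6a2, Cox7a1 and Cox8b (y axis, CPM, log scale) against the summed CPM of 20 skeletal muscle genes (x axis, log scale), 1 point per library, coloured by group and shaped by replicate. The 2 libraries at 1907 and 2173 CPM of muscle transcripts are the highest for Cox6a2, at 6.00 and 6.34 CPM, whereas Cox7a1 separates by temperature and reaches 2.04 CPM in the TN library on the right.

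The cold response of Cox7a1 and Cox8b did not rest on these libraries. In WT, where no library was rich in muscle transcripts, the rises were those given above. In HIF2α AKO without the 2 libraries, the log2 fold change was 5.73 for Cox7a1 (adjusted p = 0.00196) and 4.25 for Cox8b (adjusted p = 0.00367). Cox7a2l was then no longer called in HIF2α AKO (0.25, adjusted p = 0.184), which left 6 of 9 genes called higher, where 8.02% of the 15442 genes then tested were. Whether the muscle transcripts contributed to the higher Cox7a1 of cold HIF2α AKO replicate 1 was not tested.

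Genes with the most similar pattern were listed for the 4 tissue-restricted isoforms, by Pearson's r of log2 CPM over the 12 libraries among 13135 genes with a mean count of at least 50. For Cox7a1, they were Idh3a (r = 0.997), a subunit of the mitochondrial isocitrate dehydrogenase, Ldhb (0.996), a subunit of lactate dehydrogenase, and Mtx1 (0.995), a protein of the mitochondrial outer membrane. For Cox8b, they were Fam195a (0.998), Plin5 (0.998), a coat protein of lipid droplets, and Cidea (0.997), a lipid droplet protein of thermogenic fat. The libraries form a TN and a cold cluster, which many genes separate, so these values describe that separation and carry no test. For Cox6a2, Ttn (0.926) and Myoz1 (0.918), which encode proteins of the sarcomere, were among the highest. For Cox4i2, the highest were Tmem251 (0.843), Gm11696 (0.822) and Fbxo27 (0.808).

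The remaining nuclear genes of the complex were read from the same fit for comparison. Of 10 other nuclear subunit genes, 8 were tested and 7 rose in cold in each genotype, with a median log2 fold change of 1.57 in WT and 1.74 in HIF2α AKO. Cox5b and Cox6b1 were the most highly counted of them in each group, without regard to length, and Cox5b, a subunit with a zinc site, rose from 130 to 466 CPM on average in WT. Cox6b2, the testis form of subunit 6B, was at 1.42 CPM on average in TN WT and 2.50 CPM in cold WT and did not pass the test. Cox7b2 and Cox8c, also testis forms, had 0 counts in all libraries. The widely expressed isoforms of the 4 pairs had log2 fold changes of 1.23 to 1.57 in WT, beside 1.26 to 1.90 for the 7 other subunit genes that rose. Cox7a1 and Cox8b lay above all 7 of these.

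Genes for assembly and copper delivery of the complex had a smaller median change. Of 27 listed, 25 were in the table, 23 were tested and 18 rose in each genotype, with a median log2 fold change of 0.74 in WT and 0.86 in HIF2α AKO. Coa5 and Lrpprc, which stabilises mitochondrial mRNAs, were the most highly counted in each group. None of the 8 subunit genes and none of the 23 assembly genes passed edgeR's test between genotypes, at TN or in cold. The thermogenic adipocyte list had 7 of 8 genes called higher in cold in WT and 8 of 8 in HIF2α AKO, with Ucp1, the uncoupling protein, at 0.432 CPM on average in TN WT and 2638 CPM in cold WT.

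**Figure D5:**
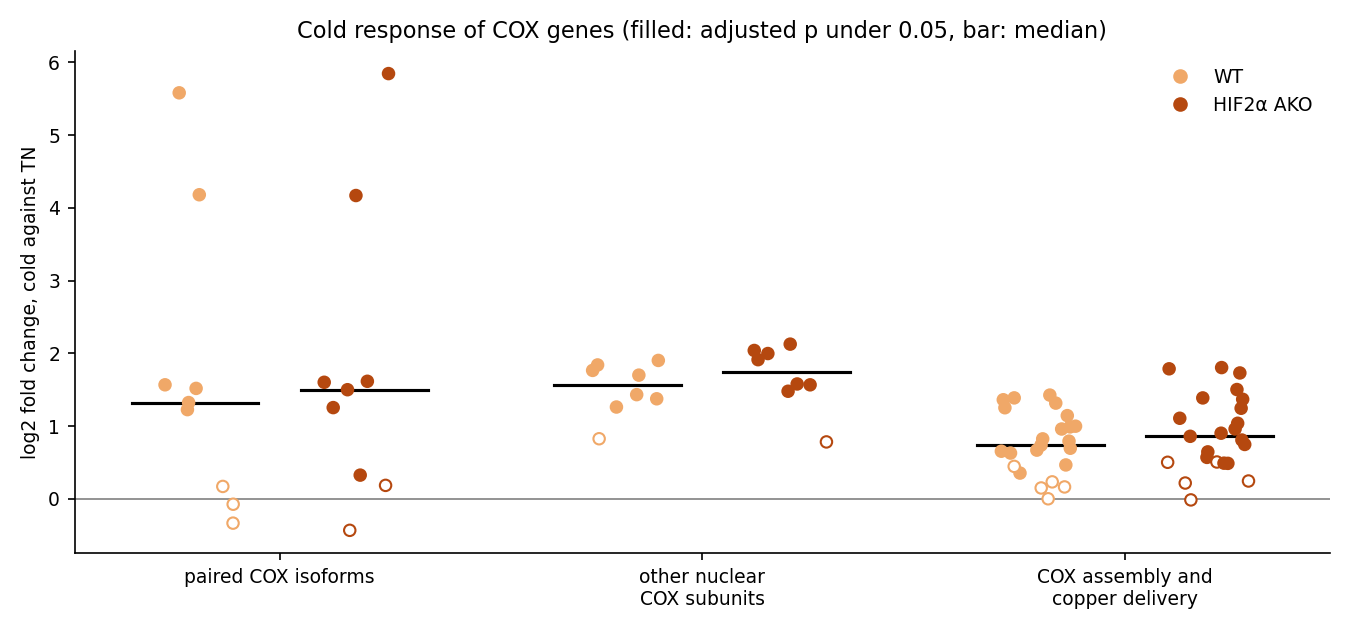
Log2 fold changes in cold against TN in WT and HIF2α AKO for the 9 paired isoform genes, 8 other nuclear subunits and 23 genes for assembly and copper delivery, 1 point per gene, filled where the adjusted p was under 0.05, with a bar at the median. The medians in WT are 1.32, 1.57 and 0.74, and Cox7a1 and Cox8b are the points above 4 in the first list.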

How the data were processed

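RNA of iWAT from 12 libraries was analysed. Per the labels and the methods, the authors trimmed reads with Trim Galore 0.4.4, aligned them with STAR 2.6.1d to GRCm38 and counted them per gene with HTSeq 0.13.5. The deposited values are whole read counts without normalization, and the strand setting was not given in the sources used here. Tallies outside genes, 21.9 to 27.0% of the reads listed, were left out, and 4.40 to 9.33% aligned to several places.

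Counts were fitted with edgeR 4.0.16 (quasi-likelihood, TMM, filterByExpr with a minimum count of 10, 15306 genes, 1 factor of 4 groups) in R 4.3.3, with Benjamini-Hochberg adjustment over all genes tested and a limit of 0.05. DESeq2 1.42.0 and limma 3.58.1 (voom with quality weights) were alternatives. The fits were checked on simulated counts. CPM use TMM-scaled library sizes. Ratios used counts plus 0.5 and two-sided exact permutation tests (SciPy 1.17.1), stratified by genotype or temperature, adjusted over 8 comparisons. Lengths, coding sequences and 50-base words came from the GENCODE annotation and transcripts of GRCm38.p6, since no genome or protein table was used here, and promoters came from RefSeq. The members and all lists were chosen with earlier results of these data known. Named genes are the members, Epas1, the 3 genes most like each tissue-restricted isoform, and genes of a list that were highest by mean CPM or had a defining role. Others were named after their values were seen, namely Epcam, which passed the test, and muscle genes at 0 counts in a library or fitted lower. Alternatives were other size factors, filters, tools, samples in the fit, a replicate block, another added count, a looser limit and each library left out. One of the genes most similar in pattern to Cox6a2 is not reported here.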

Additional observations from a re-analysis of the deposited data

How the results depend on the processing

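Under 8 other settings of the fit (size factors, filter, DESeq2, voom, replicate block, the 2 groups compared, the 2 muscle-rich libraries left out, a limit of 0.1) and with each library left out, 6 of the 9 genes were called in cold WT and 6 or 7 in cold HIF2α AKO, with Cox7a2l the exception given above. Between genotypes and for the interaction, 0 were called throughout. Over all genes, 3259 were called for cold WT and 4138 for cold HIF2α AKO. More of the 15306 genes were called by DESeq2 (4700 and 5336) and by voom (4684 and 6140), in the same order. Leaving out a library gave 1381 to 3722 and 1613 to 4155, with 1810, 1381 and 1469 without TN WT replicate 1, TN WT replicate 2 and cold WT replicate 3, and 1735, 2450 and 1613 without TN HIF2α AKO replicate 1, TN HIF2α AKO replicate 3 and cold HIF2α AKO replicate 1. With only the 2 groups compared, 1752 were called for cold WT, and without the 2 muscle-rich libraries, 1514 for cold HIF2α AKO. Of 18 pairs of libraries with the same replicate number, 5 had correlated deviations above 0.1 (range -0.43 to 0.39). Libraries of different numbers were not compared, so whether the numbers pair libraries could not be judged. With the replicate block, 6 and 7 genes were still called in cold, and all genes called numbered 2561 in WT and 3313 in HIF2α AKO. For ratios, the block flips signs over 6 pairs and cannot go below an adjusted p of 0.0625 here, which all 4 cold ratios reached at unchanged values (4.49, 3.05, -1.51 and -2.17).

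With single libraries left out, the difference in log2 ratio ranged from -2.59 to -1.89 for Cox6a2 to Cox6a1 in cold. Between genotypes, it ranged from 0.25 to 0.77 for Cox7a1 to Cox7a2, from 0.16 to 0.50 for Cox8b to Cox8a, from 0.086 to 0.78 for Cox6a2 to Cox6a1 and from -0.088 to 0.17 for Cox4i2 to Cox4i1. Signs of uncalled log2 fold changes also turned. At TN, HIF2α AKO against WT ranged from -0.064 to 0.30 for Cox4i1, -0.057 to 0.24 for Cox4i2, -0.082 to 0.34 for Cox6a1, -0.12 to 0.32 for Cox7a2, -0.12 to 0.31 for Cox8a, -0.022 to 0.65 for Cox8b and -0.21 to 0.10 for Epas1. In cold, it ranged from -0.55 to 1.49 for Cox6a2 and from -0.0076 to 0.27 for Cox8a. Cold against TN ranged from -0.23 to 0.030 for Cox4i2 in WT and from -2.01 to 0.39 for Cox6a2 in HIF2α AKO.

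Without the 2 muscle-rich libraries, the genotype difference in the Cox6a2 to Cox6a1 ratio was -0.16, and the log2 fold changes were -0.041 for Cox4i2 (cold against TN in HIF2α AKO), -0.55 for Cox6a2 and -0.0075 for Cox8a (HIF2α AKO against WT in cold), and -0.080 for Cox7a2 and -0.077 for Cox8a (at TN). The causes were not tested. At 9 to 65 reads for Cox7a1 at TN and 16 to 202 for Cox6a2, fold changes of these genes are less precise than those of the widely expressed isoforms.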
